A study of Mus musculus with 2 samples.

Results

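The retinoid receptors of mouse melanoma cells were described from the 6 genes *Rxra*, *Rxrb*, *Rxrg*, *Rara*, *Rarb* and *Rarg*, chosen by name. They had 12 probes, and they are 6 of the 27790 genes or transcripts measured. Total RNA of the lines B16F1-GFP-D and B16F1-GFP-M, both grown in DMEM with serum and without treatment, was compared on 2 Agilent arrays, on which each spot takes up the RNA of both lines, told apart by dye. B16F1-GFP-M is the maternal GFP-labelled B16F1 melanoma line. B16F1-GFP-D is a line from 1 colony of GFP+ cells that had been sorted from pooled organs of mice free of tumours. The mice were C57BL6JRj, some immunised with irradiated B16F1 cells expressing GM-CSF and some controls, taken 1 year after challenge with B16F1-GFP cells. The word dormant refers to the founding cell, not to the growing culture. On array 1 the Cy5 dye marked B16F1-GFP-M and the Cy3 dye B16F1-GFP-D, on array 2 the dyes were exchanged, and both arrays lay on 1 slide. The labels name no separate cultures or extracts, so the arrays count as 1 replicate per line and the lines were not tested against each other. Differences are given as the log2 D/M ratio, B16F1-GFP-D divided by B16F1-GFP-M, and every ± below is the SD between the 2 arrays, which holds dye effects but nothing of how cultures vary.

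Retinoid receptors are nuclear receptors, transcription factors that bind DNA in pairs. The retinoic acid receptors (RARα, RARβ and RARγ, from *Rara*, *Rarb* and *Rarg*) bind retinoic acid, made from vitamin A, and work as pairs with a retinoid X receptor (RXRα, RXRβ or RXRγ, from *Rxra*, *Rxrb* and *Rxrg*). The retinoid X receptors are also the partners of the thyroid hormone, vitamin D, PPAR and LXR receptors. Without ligand, a pair on DNA can hold corepressors, and ligand exchanges these for coactivators. Retinoic acid slows growth and promotes differentiation in many melanoma cultures, B16 among them.

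A pair of sequences shows what was measured and where a receptor pair can bind. One of the *Rxrb* probes has 60 bases that the files place over 175 bases, chr17:34173690-34173864 of mm9 on the plus strand, as for a probe across an exon junction. It is shown because it is the second of the probes from which the difference of *Rxrb* is read.
*Rxrb* junction probe: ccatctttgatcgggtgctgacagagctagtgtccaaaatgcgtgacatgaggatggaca
The stretch before the start of *Rarb*, from RefSeq on GRCm38.p6, lies at chr14:16575477-16575578 on the minus strand. Its capitals mark a direct repeat of the receptor's half-site with 5 bases between (DR5), the arrangement that RAR and RXR pairs bind, 53 to 37 bases before the start.
*Rarb* promoter stretch: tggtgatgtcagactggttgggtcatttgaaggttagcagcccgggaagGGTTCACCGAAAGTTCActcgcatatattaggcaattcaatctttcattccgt

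In B16F1-GFP-D, *Rxrb* was the retinoid receptor with the largest difference from B16F1-GFP-M, at 52.8% of the B16F1-GFP-M level or 1.90-fold lower. *Rarg* had a smaller difference in the same direction, and the probes of *Rxra* disagreed in direction. The mean difference of *Rarb* was smaller than its spread, and *Rara* and *Rxrg* were not detected. None of the 6 genes was called, that is, at least 2-fold different in the same direction on each array and well above background in at least 1 line on both arrays. Of the 12540 genes that were detected, meaning well above background in this way, 5.03% were called. Of the 4 detected receptors, each read from its brightest probe, *Rxra*, *Rxrb* and *Rarg* were lower on both arrays. The other *Rxra* probe was higher on both. Of all detected genes, 42.8% were lower on both arrays at any size and 41.0% were higher. In these bulk RNAs, fewer cells with a transcript and less of it per cell cannot be told apart.

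**Figure D1:**
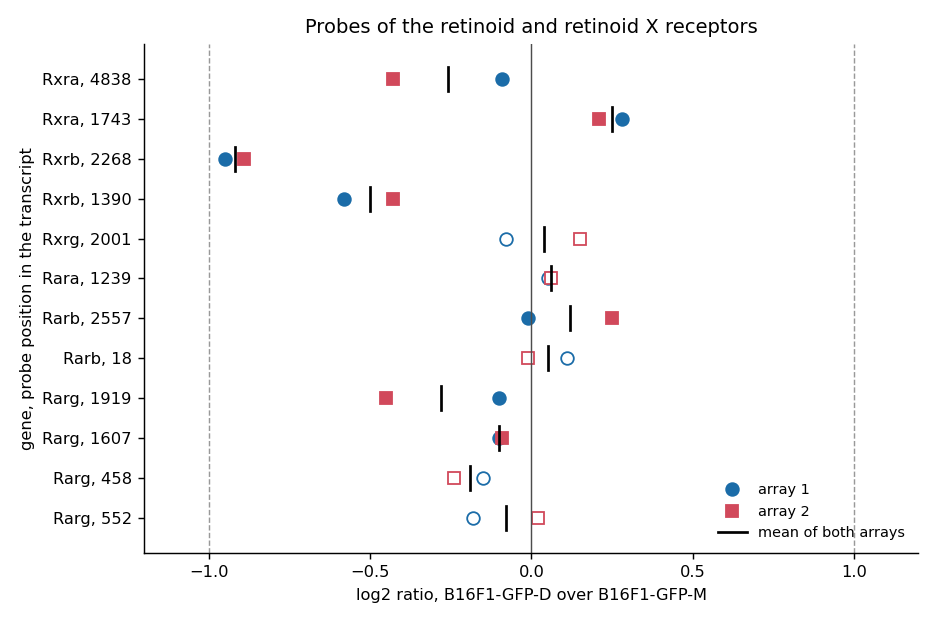
The log2 D/M ratio (x axis) of each of the 12 probes of the retinoid and retinoid X receptors, named by gene and by position in the transcript (y axis). Circles are array 1, squares array 2 and bars their mean, open symbols are probes that were well above background on both arrays in neither line, and dashed lines mark 2-fold. Both *Rxrb* probes lie below 0 on both arrays and inside the dashed line, while the 2 *Rxra* probes lie on opposite sides of 0.

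*Rxrb*, which encodes RXRβ, lies on chromosome 17. Its brighter probe, at chr17:34174996-34175055 of mm9, had a spot brightness in B16F1-GFP-D of 504 on array 1 and 1961 on array 2, over a local background of 22 and 77. In B16F1-GFP-M the brightness was 3241 on array 1 and 956 on array 2, over 79 and 17. Within each dye the brighter line was B16F1-GFP-M: in Cy5 3241 stood against 1961, and in Cy3 956 against 504. After normalization the log2 D/M ratio was -0.95 on array 1 and -0.89 on array 2, a mean of -0.92 ± 0.04. Both arrays fell just short of the 2-fold line, and the difference was far larger than the pooled SD between arrays of 0.15 over all detected genes. Of the detected genes, 371, or 2.96%, had a lower mean ratio. The scanner software's own log ratio put the same spots just past the line, at -1.02 and -1.0, and *Rxrb* was then called, as were 4.76% of the detected genes in the lower direction and 10.8% in either.

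The junction probe of *Rxrb* gave the same direction at a smaller size. Its log2 ratio was -0.58 on array 1 and -0.43 on array 2, a mean of -0.50 ± 0.11, or 70.6% of the B16F1-GFP-M level. The range between the probes was 0.42. Among the 3391 genes with 2 detected probes, the median range was 0.17, the 90th percentile was 0.50, and 14.4% had a wider range than *Rxrb*. The size of the *Rxrb* difference thus depended on the probe, and its direction did not.

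*Rxra* encodes RXRα and lies on chromosome 2. Its brighter probe, at position 4838 of the transcript, had log2 ratios of -0.09 and -0.43, a mean of -0.26 ± 0.24. Its dimmer probe, at position 1743, had 0.28 and 0.21, a mean of 0.25 ± 0.05. The probes were on opposite sides of 0, with a range of 0.50 that 9.73% of genes with 2 detected probes exceeded, so these arrays gave *Rxra* no direction. On the brighter probes, *Rxrb* lay below *Rxra* by 0.87 on array 1 and by 0.46 on array 2 on the log2 scale. *Rxrg*, which encodes RXRγ, lies on chromosome 1 and was well above background on no array in either line, with 1.43 to 2.16 times its local background, and its ratios of -0.08 and 0.15 are those of spots near background.

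**Figure D2:**
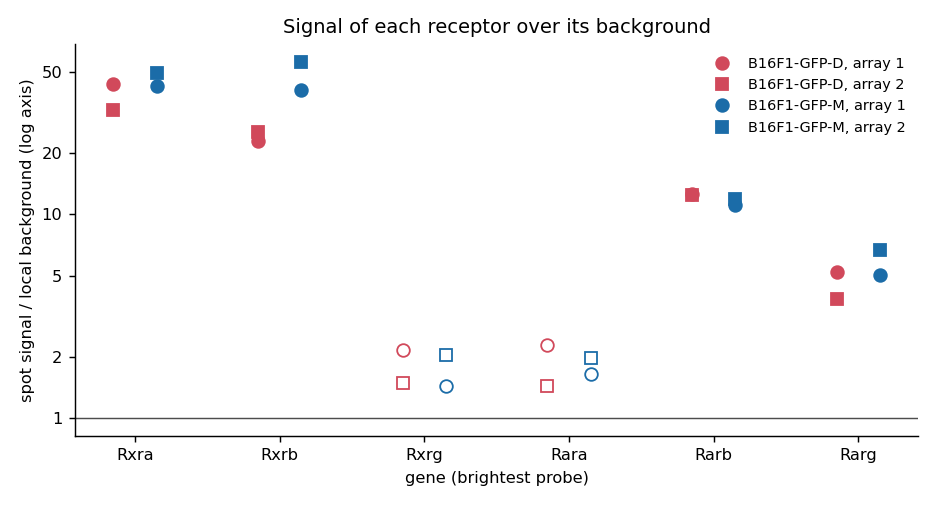
The spot signal divided by its local background (y axis, log scale) for the brightest probe of each retinoid receptor (x axis), in each line and on each array. Filled symbols are well above background on both arrays in that line, and heights are comparable within a gene only. For *Rxrb* both B16F1-GFP-D values (22.9 and 25.5) lie below both B16F1-GFP-M values (41.0 and 56.2), while *Rxrg* and *Rara* stay under 2.5 in both lines.

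Among the retinoic acid receptors, *Rarg*, which encodes RARγ and lies on chromosome 15, had 4 probes, of which 2 were detected. The brighter had log2 ratios of -0.10 and -0.45, a mean of -0.28 ± 0.25, and the other had -0.10 and -0.09, a mean of -0.10 ± 0.01. Both were below 0 on both arrays. The first mean was close to its own spread, and the second was below the pooled SD of 0.15 although its arrays lay close together. The remaining probes were well above background on at most 1 array in a line, with means of -0.19 and -0.08.

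*Rarb* encodes RARβ, lies on chromosome 14 and is known as a target of retinoic acid through an element of the kind printed above. Its brighter probe was spotted 10 times on each array. On array 1 these spots ran from -0.07 to 0.03 in log2 ratio, and on array 2 from 0.20 to 0.31, each with an SD of 0.04. The spots of an array lay close together and the arrays did not overlap, so that the mean of 0.12 ± 0.18 was smaller than its spread. The repeated spots show that the precision within an array was much finer than the difference between the arrays. The other *Rarb* probe was above background on 1 array in each line. *Rara*, which encodes RARα and lies on chromosome 11, was well above background on no array in B16F1-GFP-D and on 1 array in B16F1-GFP-M, with ratios of 0.05 and 0.06 and no fold to be given.

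The DR5 search covered the RefSeq promoter windows on both strands, for GGTCANNNNNNGGTCA, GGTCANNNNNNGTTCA, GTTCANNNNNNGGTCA and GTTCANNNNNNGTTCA. Of all 32851 windows, 81 held a match, or 0.247%. Of the receptors, only *Rarb* had one in its window. Of the retinoic acid response genes listed below, 16 had a window, and *Cyp26a1*, whose enzyme breaks down retinoic acid, was the only one with a match. *Cyp26a1* was not above background in either line. A match is a string of letters and no evidence of binding in these cells.

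The other nuclear receptors give the scale of these differences. The 42 others reported here are not the whole family, so *Rxrb* is given no rank in it. Of these 18 were detected, none of them called. Their median log2 ratio was -0.14, beside -0.01 for all detected genes, with 11 lower and 6 higher on both arrays. The median was -0.03 with array 1 alone, over 29 genes, and with array 2 alone, over 27. It was -0.02 over all 42 when dim probes were kept, and -0.27 by the scanner's ratio. That ratio also called 2 of the 18, beside 10.8% of all detected genes. They were *Nr1d1* with 1.6 and 1.99 and *Nr4a3*, an orphan receptor named here after its values were seen, with -2.21 and -2.65. In the normexp values *Nr4a3* had -0.62 and -0.74, and it was well above background in B16F1-GFP-D on 1 array. *Nr1d1*, which encodes the clock repressor REV-ERBα, differed in the other direction from *Rxrb*, with 0.95 and 1.21, a mean of 1.08 ± 0.19. The dimmer *Nr1d1* probes had means of -0.12 and -0.04 and were not detected.

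**Figure D3:**
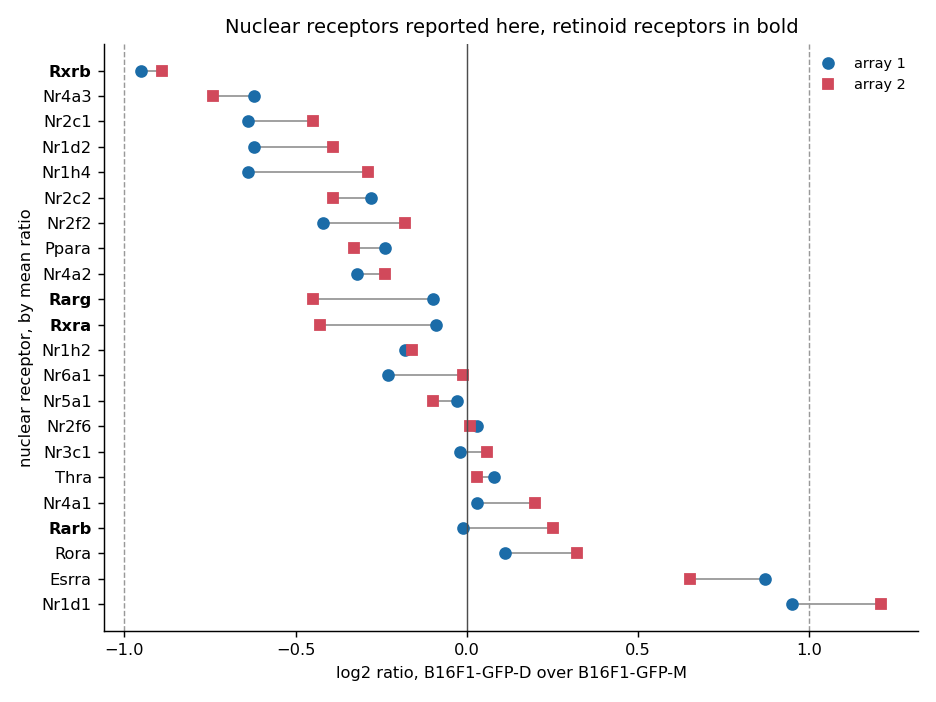
The log2 D/M ratio (x axis) of the 22 detected nuclear receptors reported here, which are not the whole family, each by its brightest probe and ordered by mean (y axis). Circles are array 1 and squares array 2, dashed lines mark 2-fold, and retinoid receptors are in bold. Both *Rxrb* values lie near the lower dashed line, those of *Nr1d1* near the upper one, and *Rxra*, *Rarg* and *Rarb* lie between them.

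By brightest probes and normexp values, the detected partners of RXR differed less than *Rxrb*. Of 13 partner receptors 6 were detected, with 4 lower and 2 higher on both arrays, none called and a median of -0.22. The farthest from 0 was *Nr1h4*, which encodes the bile acid receptor FXR, with -0.64 and -0.29, a mean of -0.46 ± 0.25. *Ppara*, the receptor of fatty acid catabolism, had -0.24 and -0.33, and was well above background in B16F1-GFP-D on 1 array. The scanner's ratio called none of the 6, but put *Ppara* at -0.82 and -0.96, beside -1.02 and -1.0 for *Rxrb*. *Nr4a2*, an immediate early receptor, had -0.32 and -0.24.

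Of the genes reported here that bring retinoids into the cell and bind them, 2 of 8 were detected, neither of them in both lines, and none was called. *Rbp7*, which encodes a cellular retinol-binding protein, had -0.94 and -1.08, a mean of -1.01 ± 0.10. It was well above background in B16F1-GFP-M on both arrays and in B16F1-GFP-D on 1. The dimmer *Rbp7* probe was not detected and had a mean of -0.23. *Crabp2*, which carries retinoic acid to the nucleus, had 0.62 and 0.38. On both arrays it was well above background in B16F1-GFP-D, and on neither in B16F1-GFP-M, and against the background level there it was at least 1.31-fold higher in B16F1-GFP-D, where the level taken on each array was the higher of its own B16F1-GFP-M signal and the dimmest signal well above background in that line. The scanner's ratio gave far larger sizes at these dim spots, and both genes were called with it, beside 10.8% of all detected genes. *Rbp7* then had -3.47 and -3.02 and *Crabp2* 3.36 and 2.31. Such sizes depend on the signal of a line near background. For *Rbp4*, above background in neither line, the same ratio was 0.0 on both arrays.

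Of the genes listed for retinoic acid synthesis 14 of 22 were detected, with 9 higher and 4 lower on both arrays, none called and a median of 0.07. The list also holds enzymes that act on retinol and retinal without making retinoic acid, so its counts give no direction of synthesis. The largest differences were all higher in B16F1-GFP-D. *Dhrs4*, a dehydrogenase that acts on retinal, had 0.94 and 0.93, a mean of 0.93 ± 0.01. *Rdh11*, which interconverts retinal and retinol, had 1.01 and 0.84 on its brighter probe, and its second probe had 1.36 and 1.26, past 2-fold on both arrays. *Retsat*, which saturates retinol, had 0.67 and 0.91. Named after their values were seen, *Rdh5* and *Rdh10*, both among the 4 lower, had means of -0.60 and -0.54. The other *Rdh10* probes had means of -0.00 and -0.18. *Aldh1a1* and *Aldh1a3* had means of 0.08 and -0.03, and each was well above background in B16F1-GFP-M on 1 array only. The other *Aldh1a3* probe had a mean of 0.08. Of the degradation genes, *Cyp26b1* was detected, with -0.58 and -0.06, a mean of -0.32 ± 0.37 that was smaller than its spread.

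The corepressors and coactivators of the receptors were all detected in both lines, 9 and 11 genes, and none was called. The corepressor median was -0.04, with *Tbl1xr1*, a subunit of the NCoR complex, at -0.51 and -0.50, the deacetylase *Hdac3* at 0.32 and 0.37, and *Sin3a*, a scaffold of deacetylase complexes, at 0.41 and 0.23. The coactivator median was -0.09. *Ncoa7*, a nuclear receptor coactivator, had -0.84 on each array, and its second detected probe gave -0.82 and -1.01. The arginine methyltransferase *Prmt1* had 0.55 and 0.43, and the acetyltransferase *Crebbp* had -0.34 and -0.57, with all 3 of its probes lower on both arrays.

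Of 25 genes listed for their response to retinoic acid, some of which stand in the lists above too, 17 were detected, with 5 higher and 6 lower on both arrays and a median of -0.06. A single one was called: *Sox9*, a transcription factor of the neural crest and of melanocytes, higher with 1.64 and 1.28, a mean of 1.46 ± 0.25. Its 2 dimmer probes had means of 1.21 and 0.22. In the other direction, and named after their values had been seen, the transglutaminase gene *Tgm2* had -0.96 and -0.92 and *Tnfaip2* had -0.89 and -0.93. The other *Tgm2* probes were not detected and lay near 0. With the scanner's ratio 3 of the 17 were called, beside 10.8% of all detected genes. They were *Sox9*, *Crabp2* and *Tgm2*, the last with -1.50 and -1.59. The list thus held genes of both directions, and its median lay near that of all genes.

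Genes controlled by the partners of RXR were also mixed. Of 8 LXR target genes 6 were detected, with 4 higher and 2 lower on both arrays and a median of 0.18. *Mylip*, whose product marks the LDL receptor for degradation, was called lower, with -1.38 and -1.46, a mean of -1.42 ± 0.06, and its dimmer probe had a mean of -0.52. Of 10 PPAR target genes 5 were detected, with 3 higher and 2 lower and a median of 0.49. The fatty acid oxidation genes *Ehhadh*, *Acaa2* and *Cpt1a* had means of 0.74, 0.51 and 0.49. This median fell to -0.11 with array 1 alone, when 7 of the genes were above background, and to 0.03 with array 2 alone. Of 5 vitamin D and thyroid receptor targets 2 were detected, *Klf9*, a thyroid hormone-responsive transcription factor, with -0.66 and -0.81, and *Thrsp*, a lipogenic gene, with -0.03 and 0.51. The second *Klf9* probe, detected in both lines, had -0.17 and -0.22.

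**Figure D4:**
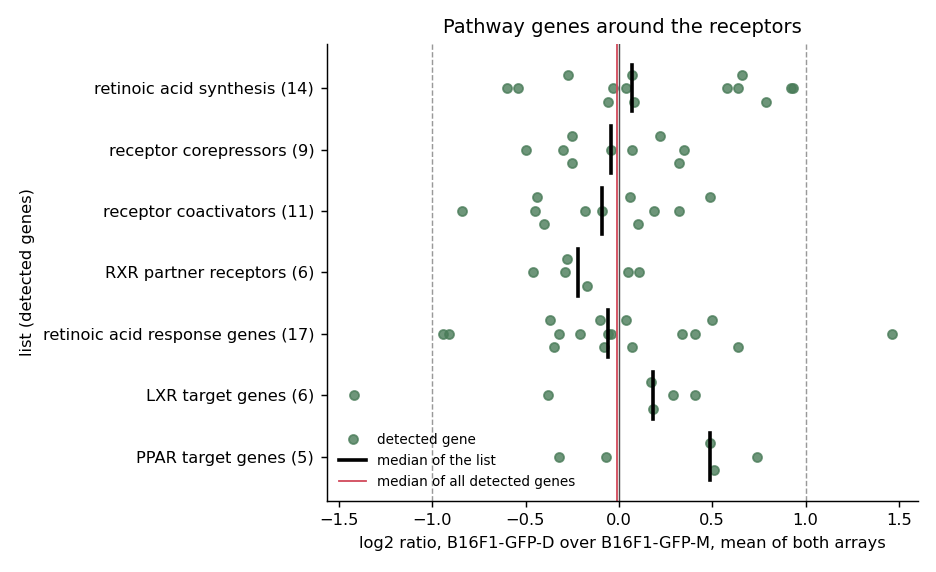
The mean log2 D/M ratio over both arrays (x axis) of every detected gene in 7 lists of the retinoid pathway and of receptors and targets linked to RXR (y axis, with the number of detected genes). Black bars are the list medians, from -0.22 to 0.49, the red line is the median of all detected genes at -0.01, and dashed lines mark 2-fold. Every list shown holds genes on either side of 0, with *Sox9* and *Mylip* outermost.

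*Rxrb* lies in the major histocompatibility region of chromosome 17. Of the 5 detected genes on each side of it, 5 were lower and 5 higher on both arrays and none was called. The scanner's ratio called 3 of the 10, beside 10.8% of all detected genes. They were *H2-DMb1* with 1.93 and 2.38, *Psmb9* with 1.22 and 1.87, and *Col11a2* with -1.92 and -1.0. The median of the 10 was -0.13, beside -0.17 for the 615 detected genes of the chromosome. It falls between the 5 lower and the 5 higher genes, so it describes neither. The order along the chromosome, seen after the values were known, within these 10 was that on each side the nearest were lower and those farther out higher. Beyond these 10, within 250 kb of *Rxrb*, the sides differed. Of the 15 detected genes on the side of *H2-K2*, 9 were lower and 4 higher on both arrays, beside 42.8% and 41.0% of all detected genes. The nearest of the 15, *Vps52*, was still higher, with 0.27 and 0.06. *Kifc1*, also among them and named after its values were seen, was called higher, with 1.26 and 1.29. Among the 9, *Rps28* and an unnamed transcript lay at the same distance of -214.9 kb with like ratios, and may be 1 gene. Of the 2 on the side of *Tap1*, 0 were lower and 1 was higher on both arrays. On one side the zinc transporter gene *Slc39a7* had -0.84 and -1.16 at 9.72 kb, *H2-Ke6*, a steroid dehydrogenase gene, had -0.46 and -0.34, and the Polycomb gene *Ring1* had -0.44 and -0.35. On the other side the collagen gene *Col11a2* had -0.86 and -0.50 at 28.0 kb and *Brd2*, which encodes a reader of acetylated histones, had -0.69 and -0.73 at 74.0 kb. The other 5 of the 10 were higher. *H2-DMb1* had 0.90 and 1.06, *Psmb9* 0.45 and 0.68, *Tap1* 0.38 and 0.04, *H2-K2* 0.16 and 0.62 and *H2-K1* 0.13 and 0.15. *Col11a2*, *H2-DMb1*, *Psmb9* and *Tap1* were well above background on both arrays in 1 line only. The dimmer probes of *Col11a2* and *H2-DMb1* were not detected and had means of 0.03 and 0.10.

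**Figure D5:**
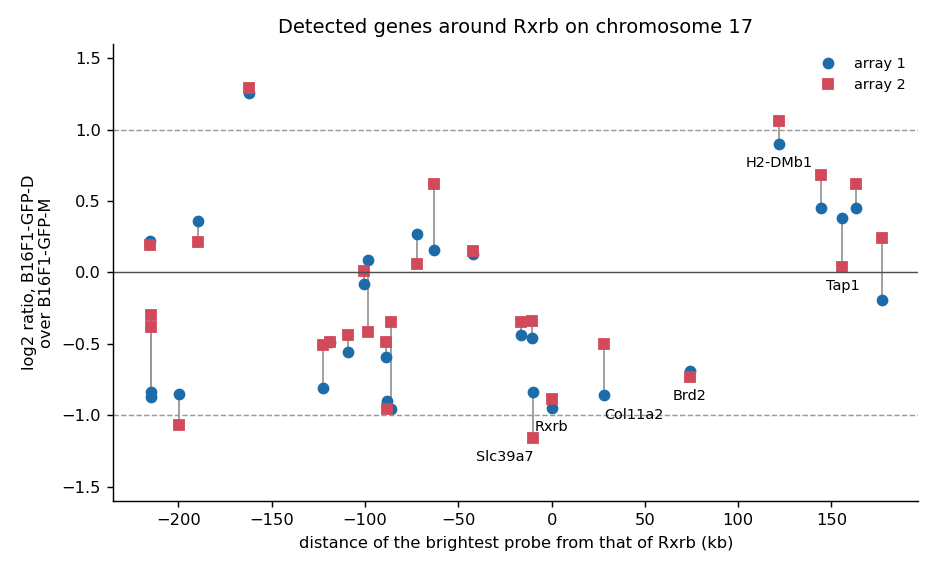
The log2 D/M ratio (y axis) of the detected genes within 250 kb of *Rxrb*, by the distance between brightest probes in kb (x axis). Circles are array 1 and squares array 2, joined for each gene, and dashed lines mark 2-fold. *Rxrb* at 0 and the genes next to it lie below 0, and the group from *H2-DMb1* to *Tap1* lies above it, while most of the genes to the left of the 10 neighbours lie below 0 again.

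The arrays limit all of these values. The share of spots well above background ran from 44.1% to 60.7% by line and array, the median spot was 1.66 to 2.60 times its local background, and no spot was saturated. The cells had the markers of their label: all 8 melanocyte markers were detected in both lines, with a summed log2 level of 18.32 to 18.65. Of these 8, 4 were lower and 2 higher on both arrays, beside 42.8% and 41.0% of all detected genes, and none was called. The farthest from 0 was *Mitf*, with -0.95 and -0.89, as large a difference as that of *Rxrb*. The second *Mitf* probe had a mean of -0.51. Of the markers of other cells, 2 of 7 for fibroblasts and 2 of 7 for leukocytes were detected, and none of those for endothelial, epithelial or liver cells, and the part of such cells in these differences was not tested.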

How the data were processed

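Total RNA of both lines was compared on 2 Agilent arrays with exchanged dyes. The deposited intensity of a spot and of the background around it is the authors' scanner reading (Agilent Feature Extraction 10.7.3.1), without normalization. The deposited log10 ratio of Cy5 over Cy3, and the rounded series value table, come from the software's background-subtracted and dye-normalized intensities. Its p-values of single spots were not used. Its flags gave outlier spots (143 and 176, left out) and spots well above background.

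In R 4.3.3 with limma 3.58.1, mean signals were corrected by normexp (offset 50) and normalized by loess within arrays, which draws ratios of dim spots towards 0. Ratios were expressed as log2 D/M after the dye exchange was taken into account, and spots of a probe were averaged, leaving 41164 probes. The levels of single lines, used for the marker sums and the bound of *Crabp2*, were also scaled between the arrays with limma's Aquantile method. A gene was read from its brightest probe. Names came from RefSeq accessions (GRCm38.p6, names and promoters only); of 28069 probes with an accession 27192 matched. Positions are those of the files, on mm9. The steps were tested on simulated arrays, with changes beyond 2-fold at spots well above background in both lines. Dim spots and changes below 2-fold, as those of the receptors, were not tested in this way. Tables were made with pandas 2.3.3 and numpy 2.4.6 in Python 3.11.15, figures with matplotlib 3.10.9.

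The lists leave out 2 genes that are not reported here. Members and lists were chosen with earlier results of these data known. Named were the receptors, the called genes of each list or otherwise up to 3 of its largest differences, nuclear receptors at least as far from 0 as *Rxrb*, and the neighbours of *Rxrb*. Alternatives changed the ratio, the background correction, the normalization, the probe, the filter, the threshold and the arrays used. The array normalization of the paper is not given in the sources used here.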

Additional observations from a re-analysis of the deposited data

How the results depend on the processing

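No paired analysis was possible because there is 1 replicate per line, and no slide block was possible because both arrays lie on 1 slide. An alternative was counted as moving a value when it shifted it by at least the pooled SD between arrays, 0.15. Of 54 alternatives for the receptors 44 moved the ratio by less, and 2 changed its sign. *Rxrb* kept its direction throughout, from -1.01 to -0.71, the latter with the median of its probes, which gave -0.01 for *Rxra*. The scanner software's log ratio gave 0.51 for *Rara* and -0.46 for *Rarg*, and the deposited series values gave 0.51 and -0.45. The count of called receptors became 1, *Rxrb*, with the scanner's ratio, with the series value table and with a 1.5-fold threshold, which called 1356, 1352 and 1979 genes in all. With single arrays *Rxra* ran from -0.43 to -0.09, *Rarg* from -0.45 to -0.10, *Rxrb* from -0.95 to -0.89, *Rarb* from -0.01 to 0.25 and *Rxrg* from -0.08 to 0.15.

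Of 88 alternatives for the list medians 77 moved them by less than that SD and 7 changed their sign. The scanner's ratio and the series value table each gave 0.23 for synthesis and -0.22 for response genes. Without the filter on dim probes the median was 0.02 for PPAR targets. The filter on both lines gave 0.33 for synthesis, and median centring gave 0.09 for coactivators. With single arrays response genes ran from -0.03 to 0.09, RXR partners ran from -0.16 to -0.03 and PPAR targets ran from -0.11 to 0.03. Single arrays also changed the genes that passed the filter. These were 19 response genes and 7 PPAR targets with either array, and 13 RXR partners with array 1 and 11 with array 2. The median of the genes beside *Rxrb*, whose alternatives were chosen after seeing the data, ran from -0.17 to -0.04. The cause of these shifts was not tested. Many spots lay near background, which limits the values of dim genes most.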
